A study of Mus musculus with 13 samples.

Results

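Disease-associated microglia genes were followed by symbol through single-nucleus RNA counts of the mouse hippocampus. The set held 9 genes: 6 activation genes (Axl, Lpl, Itgax, Spp1, Cst7 and Clec7a) and 3 homeostatic genes (P2ry12, Tmem119 and Cx3cr1). Of these, 8 matched a row among the 32285 genes of the count matrices, and Clec7a is not analysed here. All mice were female C3B6F1 hybrids (spelt C3HB6F1 in the strain field), and nuclei were isolated from whole frozen hippocampus, sorted and barcoded in droplets. The 4 groups were mice fed ad libitum and sampled at 5 months (young, n = 3), mice fed ad libitum and sampled at 24 months (old ad libitum, n = 3, numbered 1, 2 and 4), mice sampled at 24 months after dietary restriction from 20 months (acute restriction, n = 3) and mice sampled at 24 months after dietary restriction from 5 months (long-term restriction, n = 4). Each of the 13 libraries is called a mouse below. The labels do not say whether a library pooled animals, so p-values measure the spread between libraries.

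Microglia are the resident macrophages of the brain. In their resting, or homeostatic, state they are marked by the purinergic receptor P2ry12, the membrane protein Tmem119 and the fractalkine receptor Cx3cr1. Around amyloid plaques, dying neurons and ageing white matter, some microglia enter a disease-associated state in which these genes decline and a phagocytic and lipid-handling program that depends on the receptor Trem2 is switched on. Axl is a receptor tyrosine kinase that binds phosphatidylserine on dying cells through a bridging ligand. Lpl (lipoprotein lipase) hydrolyses triglycerides, Itgax encodes the integrin CD11c, Spp1 encodes the secreted glycoprotein osteopontin, and Cst7 encodes cystatin F, an inhibitor of lysosomal cathepsins.

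The promoters of Axl, Itgax and Spp1 are shown because none of these genes gave a UMI (a counted RNA molecule) in the microglia-like nuclei of any young mouse, while each gave at least 10 UMIs in old mice. Each run is the 250 bases before the annotated transcript start, 5′ to 3′ on the strand of the gene (RefSeq, GRCm38.p6), at chr7:25788734-25788983 on the minus strand for Axl, chr7:128129300-128129549 on the plus strand for Itgax and chr5:104434861-104435110 on the plus strand for Spp1. Capitals mark GAGGAAG or its reverse complement CTTCCTC, a core of the sites bound by PU.1, a transcription factor of myeloid cells. It contains GGAA, the shorter core of the ETS factor family.
Axl: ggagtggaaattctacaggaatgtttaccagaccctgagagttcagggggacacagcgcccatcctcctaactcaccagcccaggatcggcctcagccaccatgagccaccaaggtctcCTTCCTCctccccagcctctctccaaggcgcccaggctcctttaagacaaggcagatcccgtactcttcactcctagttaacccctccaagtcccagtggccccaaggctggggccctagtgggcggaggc
Itgax: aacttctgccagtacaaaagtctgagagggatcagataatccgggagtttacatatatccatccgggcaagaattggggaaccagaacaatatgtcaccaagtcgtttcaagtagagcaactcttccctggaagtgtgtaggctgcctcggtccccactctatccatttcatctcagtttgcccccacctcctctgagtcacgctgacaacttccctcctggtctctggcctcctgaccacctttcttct
Spp1: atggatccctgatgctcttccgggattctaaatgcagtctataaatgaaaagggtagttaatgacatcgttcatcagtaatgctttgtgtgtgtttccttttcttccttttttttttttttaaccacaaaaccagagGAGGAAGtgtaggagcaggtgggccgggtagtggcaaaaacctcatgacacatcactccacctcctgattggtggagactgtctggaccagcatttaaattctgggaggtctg
The Axl and Spp1 runs each held 1 match and the Itgax run none. A second annotated Spp1 promoter (chr5:104435942-104436191) and the promoter of Cst7, which also had 0 UMIs in young mice but 4 in old mice, held none. Among 32851 promoters of the same length, 10.6% held GAGGAAG on either strand and 93.4% held GGAA. A match is a description of these letters only.

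Of 105759 barcodes, 98041 nuclei were retained after filters and doublet removal, and 82309 of them fell into 15 classes named from marker genes. Total UMIs per library ranged from 38546292 to 80538090. Libraries shared 4 to 40 barcodes per pair, at most 0.471% of the smaller library. Microglia-like nuclei numbered 1619 (20 to 302 per mouse) and carried all 18 microglial markers, for example Csf1r, the receptor of colony-stimulating factor 1, at 859 UMIs per 1000000 UMIs of the class (CPM). Macrophage-like nuclei numbered 140 and were set apart by Mrc1, the mannose receptor (2766 CPM, against 4.62 in microglia-like nuclei), and F13a1, a coagulation factor subunit (4066 against 7.57). Young replicate 1 held 20 microglia-like nuclei, the fewest. A further 201 nuclei in sub-clusters that mixed microglial with other markers were left out, 78 of them young, 22 old ad libitum, 80 acute and 21 long-term. Median UMIs per microglia-like nucleus were 1180 in young, 1575.5 in old ad libitum, 1363 in acute and 1484 in long-term mice.

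The 3 homeostatic genes were highest in microglia-like nuclei, whereas Axl, Lpl, Itgax and Spp1 had higher values in other classes. Values are CPM pooled over mice, with exact 95% Poisson intervals that cover counting error only. P2ry12 stood at 905 (868 to 945) in microglia-like and 312 (256 to 376) in macrophage-like nuclei. Cx3cr1 stood at 931 (893 to 971) and 125 (90.7 to 168) in the same classes. Tmem119 stood at 125 (111 to 140) in microglia-like nuclei, with fibroblast-like nuclei next at 8.58 (5.17 to 13.4). Microglia-like nuclei held 72.7% of the UMIs of Tmem119 in named classes, 26.4% of those of Cx3cr1 and 9.47% of those of P2ry12.

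The activation genes had other orders. Axl was highest in mural cell-like (66.5, interval 50.3 to 86.1), macrophage-like (56.7, 34.7 to 87.6) and astrocyte-like nuclei (42.3, 39.6 to 45.1). Microglia-like nuclei ranked 6 of 15 for Axl at 16.8 (12.01 to 22.9) and held 2.67% of its UMIs. The first 5 classes of the Axl order, including T or NK cell-like (45.5 from 3 UMIs) and fibroblast-like nuclei (34.3, 27.0 to 43.0), overlapped their neighbours in interval. Lpl was highest by value in T or NK cell-like nuclei (60.6 from 4 UMIs, 16.5 to 155), followed by CA3 pyramidal neuron-like nuclei (41.5, 39.4 to 43.8). Microglia-like (18.9, 13.8 to 25.3) and CA1-like nuclei (17.8, 17.0 to 18.7) came next for Lpl and overlapped each other. For Itgax, 56.9% of its 65 UMIs lay in microglia-like nuclei (15.6, 10.95 to 21.4), and T or NK cell-like nuclei gave 45.5 from 3 UMIs (9.38 to 133). Spp1 was highest in mural cell-like (43.1, 30.4 to 59.5) and fibroblast-like nuclei (23.9, 17.9 to 31.3), above endothelial-like (8.59, 3.93 to 16.3) and microglia-like nuclei (4.20, 2.02 to 7.73). Cst7 had 4 UMIs in microglia-like nuclei (1.68, 0.458 to 4.31) and at most 0.239 CPM in the other classes.

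**Figure D1:**
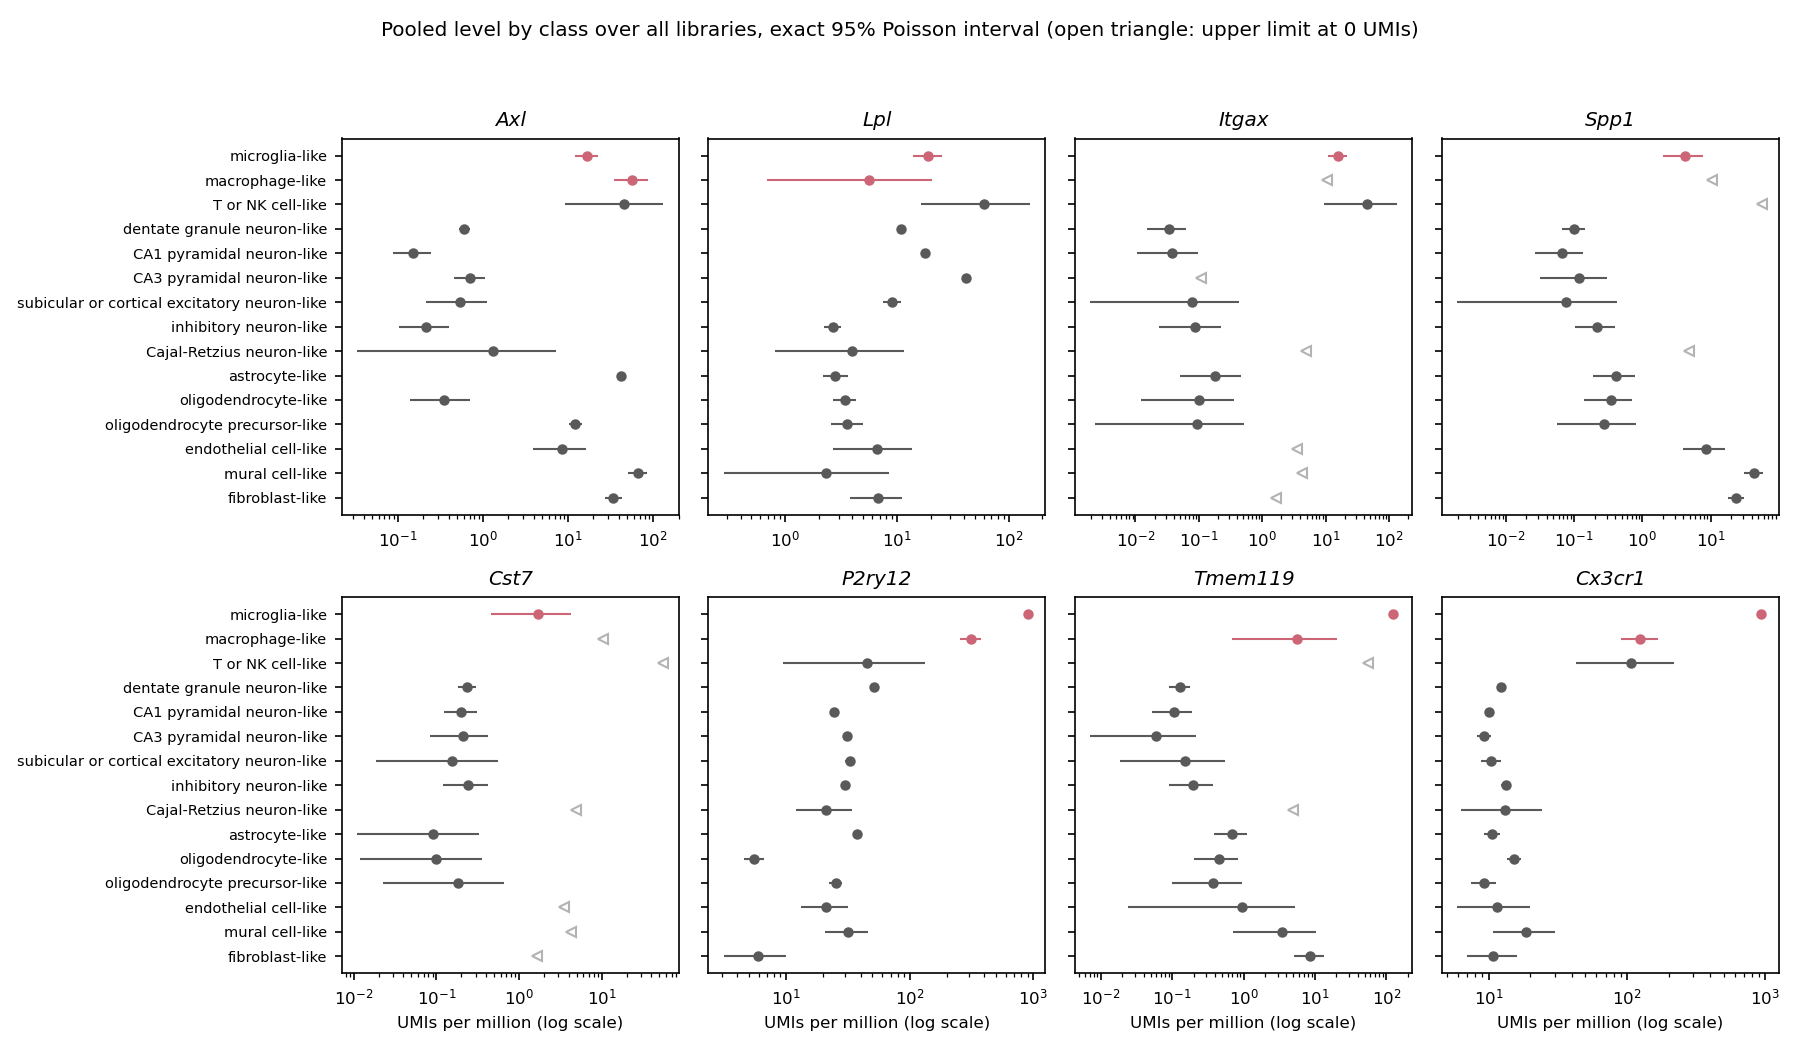
Level of each of the 8 measured genes in 15 marker-named classes, as CPM pooled over 13 mice on a log axis with exact 95% Poisson intervals. Open triangles mark the upper limit where a class had 0 UMIs. P2ry12, Tmem119 and Cx3cr1 peak in microglia-like nuclei (905, 125 and 931), while Axl and Spp1 peak in mural cell-like nuclei (66.5 and 43.1).

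In microglia-like nuclei the activation genes were at or near 0 in young mice and present at a low level in old mice. The 5 measured activation genes together gave 1 UMI in 3 young mice and 43 UMIs in 3 old ad libitum mice. Per mouse, their summed level was 0, 9.04 and 0 CPM in young, 98.3, 88.3 and 85.8 in old ad libitum, 85.9, 55.0 and 69.7 in acute and 0, 41.3, 13.04 and 150 in long-term mice. All old ad libitum and acute values lay above all young values, and the long-term mice spread from the lowest to the highest value of all 13. Few nuclei carried these sums: the 21 UMIs of long-term replicate 4 lay in 3 of 86 nuclei and the 8 UMIs of old ad libitum replicate 1 in 2 of 34. The mixed sub-clusters that were left out held 5 activation UMIs in young (4 of Lpl and 1 of Itgax), 3 in old ad libitum, 29 in acute and 0 in long-term mice. The near absence in young mice therefore holds for the named class only. Lpl in the young mixed sub-clusters stood at 10.6 CPM, beside 10.95 in granule-like nuclei. Which cells the UMIs of these sub-clusters came from was not tested. A sum over nuclei cannot tell fewer nuclei in the state apart from less RNA per nucleus.

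Markers of 5 classes with more Axl or Spp1 were read in the same sums. The 10 fibroblast markers together stood at 73.9 to 117 CPM in young, 160 to 258 in old ad libitum, 117 to 159 in acute and 117 to 237 in long-term mice. Most of their UMIs came from Bnc2 (19.1 CPM in young and 89.3 in old ad libitum) and Ranbp3l (60.1 and 91.4), and Col1a2, Col3a1 and Slc6a20a were at 0 in all groups. The 9 macrophage markers went the other way, at 274 to 307 in young and 140 to 265 in old mice, with F13a1 at 38.2 in young and 0 in old ad libitum mice and Lyve1 and Cbr2 at 0 in all groups. The 8 mural cell markers stood at 18.1 to 39.1 in young and 0 to 38.5 in old mice, with Notch3 at 0. The 10 astrocyte markers stood at 2070 to 4302 in young and 2814 to 4437 in old mice and the 10 endothelial markers at 27.1 to 117 and 9.89 to 125, so for these 3 lists old and young mice overlapped. The part of these markers in the results was not tested.

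Axl was found in the microglia-like nuclei of 9 of 10 old mice. Its UMIs numbered 0 in each young mouse, 2, 7 and 5 in old ad libitum mice (24.6, 25.7 and 39.0 CPM), 4, 5 and 10 in acute mice (28.6, 17.2 and 24.0) and 0, 3, 2 and 2 in long-term mice (0, 10.3, 13.04 and 14.3). Only long-term replicate 1 did not lie above every young mouse. The limit of 3 UMIs over the young group was 8.19 CPM. The pooled Axl level was 3.55 times that limit in old ad libitum, 2.74 times in acute and 1.25 times in long-term mice. These ratios leave out counting error in the old sums. The exact 95% interval of the long-term level (10.2 CPM, 4.11 to 21.1) held that limit. It also held the exact 95% upper limit of 0 UMIs in young mice (10.1). Young replicate 3 holds most of the young UMIs. Without it the limit was 22.0 CPM, and the Axl ratios fell to 1.32 in old ad libitum and 1.02 in acute mice. In long-term mice the ratio was then below 1, as it was without young replicate 2. Over all old mice the mean was 19.7 ± 10.99 CPM (SD, n = 10), against 0 in 3 young mice (exact permutation test, two-sided, p = 0.0245). The test weighs the young mice alike, though replicate 1 held 25571 UMIs in the class and replicate 3 held 229978. A 0 in so small a sum as replicate 1 limits the level little. The same applies wherever young and old mice are compared by overlap.

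Lpl UMIs numbered 0, 1 and 0 in young (0, 9.04 and 0 CPM), 2, 12 and 4 in old ad libitum (24.6, 44.1 and 31.2), 0, 6 and 5 in acute (0, 20.6 and 12.02) and 0, 5, 0 and 10 in long-term mice (0, 17.2, 0 and 71.5). The old ad libitum mice lay above all young mice, and 3 of the 7 restricted mice had none. Pooled, the ratio of old ad libitum to young was 13.7 with an exact 95% counting interval of 2.16 to 570.
Itgax UMIs numbered 0 in each young mouse, 1, 3 and 0 in old ad libitum (12.3, 11.03 and 0), 6, 4 and 12 in acute (43.0, 13.8 and 28.9) and 0, 3, 0 and 8 in long-term mice (0, 10.3, 0 and 57.2). The pooled Itgax level was 3.17 times the same young limit in acute and 1.96 times in long-term mice. The exact 95% interval of the long-term level (8.02 to 28.7 CPM) held that limit. In old ad libitum mice the 4 Itgax UMIs (8.31 CPM) lay below the exact 95% upper limit of 0 UMIs in young mice (10.1 CPM), and no ratio is given. The long-term ratio rested on replicate 4, which held 8 of the 11 UMIs in 2 nuclei, and without it Itgax stood at 5.50 CPM, below the limit. Without young replicate 3 the acute ratio was 1.18 and the long-term ratio 0.729.
Spp1 UMIs numbered 0 in each young mouse, 3, 2 and 1 in old ad libitum (36.9, 7.36 and 7.80), 2, 1 and 0 in acute (14.3, 3.44 and 0) and 0, 0, 0 and 1 in long-term mice (0, 0, 0 and 7.15). Its pooled old ad libitum level was 1.52 times the young limit, which lay inside the exact 95% interval of that level (4.57 to 27.1 CPM). The level fell below the limit without old ad libitum replicate 1 (7.50 CPM) or young replicate 3. No ratio is given for the other groups, which were at or under 3 UMIs. Cst7 gave 1 UMI in old ad libitum replicate 4, 2 in acute replicate 3 and 1 in long-term replicate 2.

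**Figure D2:**
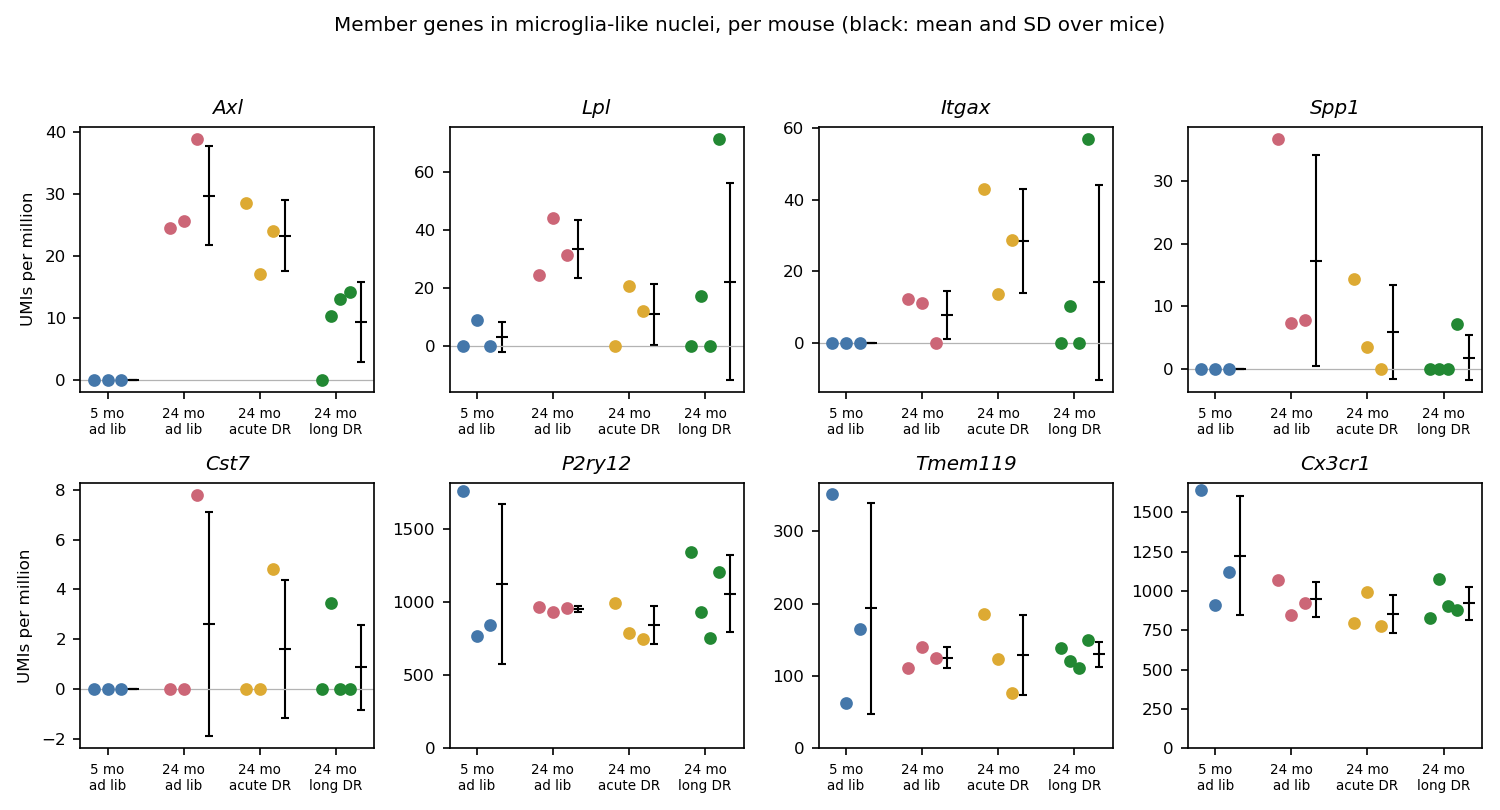
CPM in the microglia-like nuclei of each mouse for the 8 measured genes, with 1 point per mouse and bars for the mean and SD of each of the 4 groups. Axl, Itgax and Spp1 lie at 0 in all 3 young mice, and for Axl the 4 long-term mice (0 to 14.3) lie below the 3 old ad libitum mice (24.6 to 39.0).

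Between old ad libitum and young mice, Axl, Lpl and Spp1 did not overlap, that is 3 of 8 members, all higher. Of all 12257 genes with at least 10 UMIs in the class, 6.48% did so in that direction. Axl, Itgax and Spp1 had 0 UMIs in all 3 young mice, as had 2.43% of those genes. Neither share, nor those given below for restriction, is matched to the low counts of the members, and Spp1 had 10 UMIs in all. Young mice held 366174 of the 2378839 UMIs of the class. A gene with so few UMIs can have 0 in young mice without any difference with age. A comparison of 3 with 3 mice cannot reach an exact permutation p below 0.1, and Axl, Lpl and Spp1 each reached 0.1. The activation genes fell below edgeR's filter on low counts. With no filter, edgeR's quasi-likelihood test gave Axl an ageing difference of 5.43 ± 1.57 (log2, SE) with an adjusted p of 0.0745 over all genes, and no activation gene was called in any contrast. That fitted difference depends on the prior count, since the young sums are at 0.

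With long-term restriction, Axl was lower than in old ad libitum mice in 4 of 4 mice (mean 9.41 against 29.8 CPM, difference -20.4, exact permutation p = 0.0286). Spp1 was also lower in 4 of 4 (1.79 against 17.3, exact permutation p = 0.0286). Without old ad libitum replicate 1 the mean of that group for Spp1 was 7.58 (exact permutation p = 0.0667, the smallest that the mice left allow). After thinning to 1000 UMIs per nucleus the exact permutation p was 0.371. The highest long-term and the lowest old ad libitum mouse stood at 7.15 (1 UMI) and 7.36 (2 UMIs). These were 2 of 8 members without overlap, against 3.11% of genes in that direction, and 0.0286 is the smallest p that 4 against 3 mice allow. Between the regimens Axl was the only member without overlap, lower in long-term than in acute mice in 4 of 4 (9.41 against 23.3, exact permutation p = 0.0286), again beside 3.11% of genes. Lpl and Itgax spread too widely among long-term mice for either group to stand apart, with exact permutation p-values of 0.657 and 0.971 against old ad libitum.

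With acute restriction, Itgax was higher than in old ad libitum mice in 3 of 3 mice (28.5 against 7.77 CPM) and Lpl lower in 3 of 3 (10.9 against 33.3). The groups did not overlap for either gene (exact permutation p = 0.1 each, the smallest possible), where 5.31% of genes were higher and 4.87% lower without overlap. In the mixed sub-clusters that were left out, Lpl gave 18 UMIs in acute (29.7 CPM) and 2 in old ad libitum mice (6.995 CPM), the other direction. CA1-like and CA3-like nuclei held Lpl at 17.8 and 41.5 CPM, and the part of neuronal RNA in these sub-clusters was not tested. Axl did not differ beyond the spread (23.3 against 29.8, exact permutation p = 0.4). The comparisons share the old ad libitum mice. In all, 40 exact permutation tests (8 genes, 5 contrasts, two-sided, not adjusted) were made and 5 gave p below 0.05. They were chosen after seeing that the activation genes were too sparse for edgeR's filter. The 3 Axl tests below 0.05 gave 0.101, 0.114 and 0.4 after thinning each nucleus to 1000 UMIs. Without the 4 libraries numbered 1, a choice made after seeing the data, they gave 0.0556 for all old against young, 0.1 for long-term against old ad libitum and 0.1 for long-term against acute. Without any 1 young mouse the first gave 0.0606, and without any 1 mouse of either group the restriction tests gave at least 0.0667. For the restriction tests 0.1 and 0.0667 are the smallest p-values that the mice left allow, and the groups still did not overlap. So these p-values cannot show whether the difference was weaker.

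Counted by nucleus, few microglia-like nuclei held a UMI of an activation gene. At this depth 0 UMIs does not show that a nucleus lacks the gene, so these are shares of nuclei with a UMI only. A UMI of any of the 5 was found in 1 of 283 young nuclei (0.353%, exact 95% interval 0.00895 to 1.95), 26 of 292 old ad libitum nuclei (8.90%, 5.90 to 12.8), 33 of 601 acute nuclei (5.49%, 3.81 to 7.63) and 9 of 443 long-term nuclei (2.03%, 0.933 to 3.82). Per mouse the shares were 0, 1.02 and 0% in young, 5.88, 7.73 and 12.99% in old ad libitum, 4.72, 3.63 and 6.95% in acute and 0, 2.20, 2.06 and 3.49% in long-term mice. Every long-term mouse lay below every old ad libitum mouse and below every acute mouse, and this difference was not tested. Against acute mice the gap was narrow, at 3 of 86 nuclei (3.49%) in long-term replicate 4 and 7 of 193 (3.63%) in acute replicate 2. The share of all genes that separate the groups in this way is not given here. Thinned to 1000 UMIs, with 82 young, 12 old ad libitum, 36 acute and 12 long-term nuclei left out as shallower, the pooled shares were 0.498, 6.79, 4.07 and 1.62%. Old ad libitum replicate 1 then had 0 of 33, so that the per-mouse ranges of old ad libitum and long-term mice overlapped.

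**Figure D3:**
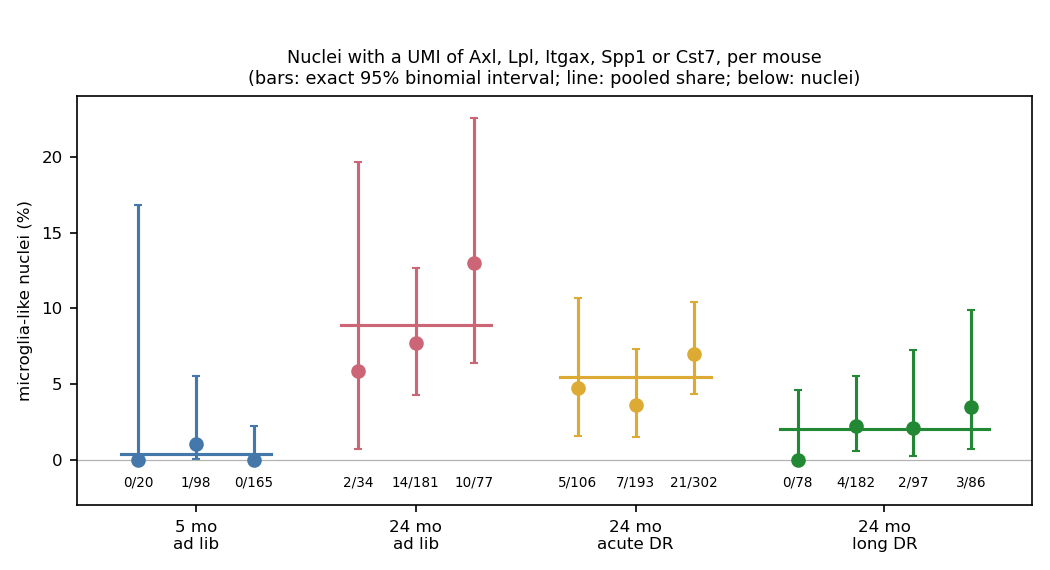
Share of microglia-like nuclei with at least 1 UMI of Axl, Lpl, Itgax, Spp1 or Cst7 in each mouse, with exact 95% binomial intervals, the pooled share of each group as a line and the counts of nuclei below. Old ad libitum mice lie between 5.88 and 12.99%, acute mice between 3.63 and 6.95%, and long-term mice between 0 and 3.49%.

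Granule-like neurons, which should lack Axl and Itgax, had a UMI of Axl in 0.414% and of Itgax in 0.0227% of nuclei at a median of 6343 UMIs per nucleus, against 2.16% and 1.42% in microglia-like nuclei at a median of 1404. Spp1 was found in 0.0656% of granule-like and 0.432% of microglia-like nuclei. Cst7 was found in 0.162% of granule-like and 0.247% of microglia-like nuclei, shares that the unequal depths do not let compare. Per UMI it stood at 0.238 CPM (0.183 to 0.304) and 1.68 (0.458 to 4.31, from 4 UMIs), intervals that did not overlap. Lpl was found in 6.51% of granule-like and 1.54% of microglia-like nuclei, again at unequal depths, and per UMI it stood at 10.95 CPM (10.6 to 11.3) and 18.9 (13.8 to 25.3). Axl was found in 35 microglia-like nuclei with at most 2 UMIs each, Lpl in 25 with up to 6, Itgax in 23 with up to 6 and Spp1 in 7 with at most 2.

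Of the 68 old nuclei with an activation gene, 53 held exactly 1 of the 5 genes and 15 held at least 2. Whether genes met more often than their shares give was not tested. Axl and Itgax shared 9 nuclei, which were 25.7% of the Axl nuclei and 39.1% of the Itgax nuclei. Axl and Lpl shared 7, and Lpl and Itgax shared 6. Of 7 Spp1 nuclei, 4 also held Axl, 4 held Lpl and 4 held Itgax. At least 2 of the 5 genes were found in 15 nuclei from 8 old mice (5 nuclei in old ad libitum, 6 in acute and 4 in long-term mice) and in 0 of 283 young nuclei, which allows a share of up to 1.06% (3 nuclei of 283). That limit is on nuclei in which 2 genes were detected, at a median of 1180 UMIs per nucleus. At least 3 genes were found in 8 nuclei.

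None of the homeostatic members was called between groups of mice by edgeR. P2ry12 stood at 1760, 768 and 848 CPM in young, 971, 934 and 960 in old ad libitum, 995, 791 and 750 in acute and 1344, 933, 756 and 1208 in long-term mice. Tmem119 stood at 352, 63.3 and 165 in young, 111, 140 and 125 in old ad libitum, 186, 124 and 77.0 in acute and 138, 120, 111 and 150 in long-term mice. Cx3cr1 stood at 1642, 913 and 1117 in young, 1069, 850 and 921 in old ad libitum, 795, 990 and 774 in acute and 830, 1074, 906 and 879 in long-term mice. Young replicate 1, with its 20 nuclei, was the highest mouse for all 3 genes, and the groups overlapped for each.

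By edgeR's quasi-likelihood test the ageing differences on the log2 scale were -0.08 ± 0.23 (SE) for P2ry12, -0.23 ± 0.36 for Tmem119 and -0.32 ± 0.17 for Cx3cr1, with adjusted p-values of 0.964, 0.904 and 0.520. None of the 3 was called, beside 0.991% of the 3936 genes tested in the class. Over all old mice against young, Cx3cr1 differed by -0.36 ± 0.14 (unadjusted p = 0.0139, adjusted p = 0.259 by edgeR), again not called beside 0.915% of genes. On CPM its mean was 909 in old and 1224 in young mice (exact permutation p = 0.0280), with 6 of 10 old mice below every young mouse. That young mean was raised by young replicate 1, at 1642 CPM from 42 UMIs in 20 nuclei. The other young mice stood at 913 and 1117.5 CPM. Pooled, the Cx3cr1 ratio of all old to young was 0.826. With 1 library left out, the log2 difference of Cx3cr1 for all old ranged from -0.478 to -0.226. The permutation p without young replicate 1 is not given here. The sign of the P2ry12 difference turned to 0.18 for ageing without young replicate 1. Long-term against old ad libitum gave 0.14 ± 0.20 for P2ry12, -0.01 ± 0.32 for Tmem119 and -0.01 ± 0.16 for Cx3cr1. Acute against old ad libitum gave -0.19 ± 0.21, -0.14 ± 0.32 and -0.14 ± 0.16 for the same genes. None was called by edgeR, beside 0.0508% and 0.0254% of genes. Long-term against acute restriction gave 0.33 ± 0.20 for P2ry12, beside 0 calls by edgeR or DESeq2 among all genes (percent called 0, with 174 genes at an unadjusted p below 0.05 in edgeR).

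Around the members, 2 lists of the same programs were read from that fit. Of 30 further disease-associated genes, 16 were abundant enough to test, and 13 of these were higher by value for ageing. Ank and Cadm1 were called higher by edgeR and none was called lower, beside 0.991% of the 3936 genes tested. The list had a median log2 difference of 0.17 for ageing, beside 0.02 over all genes tested. Ank, which exports pyrophosphate and ATP, stood at 78.2, 90.4 and 82.6 CPM in young, 283, 235 and 414 in old ad libitum, 157, 189 and 166 in acute and 109, 120, 170 and 193 in long-term mice. Every old mouse lay above every young mouse (ageing 1.79 ± 0.31, edgeR adjusted p = 0.000905; all old 1.17 ± 0.28, adjusted p = 0.0293). Ank was highest in oligodendrocyte-like nuclei (426 CPM, against 175 in microglia-like nuclei over all mice). In the microglia-like sums the 10 oligodendrocyte markers together stood at 117, 325 and 226 in young, 356, 445 and 351 in old ad libitum, 229 to 540 in acute and 227 to 346 in long-term mice, so they too were higher in every old ad libitum than in every young mouse. Their part in the Ank result was not tested. Cadm1, a cell adhesion molecule, ranged from 407 to 583 in young and from 940 to 1553 in old mice (ageing 1.43 ± 0.19, edgeR adjusted p = 1.32e-05). Over all mice it stood at 1990 CPM in astrocyte-like, 1118 in inhibitory and 1040 in CA1-like nuclei, against 1033 in microglia-like nuclei. The part of these classes in the Cadm1 result was not tested. Apoe (-0.76), Trem2 (0.18), Tyrobp (-0.04) and Ctsb (0.06), other parts of the program, were tested for ageing and not called by edgeR.

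With restriction, 0 of the 16 disease-associated genes were called by edgeR in either regimen, with 4 below an unadjusted p of 0.05 for long-term and 2 for acute restriction, beside 6.15 and 4.75% of all genes tested (242 and 187 of 3936). The list had a median log2 difference of -0.21 for long-term and -0.15 for acute restriction, beside -0.0035 and -0.0014 over all genes tested. By value 4 and 7 of the 16 genes were higher. Ank was lower in long-term than in old ad libitum mice in 4 of 4 mice (-1.04 ± 0.24, edgeR adjusted p = 0.0907). Of 21 further homeostatic genes, 18 were tested, and 5 of these were higher by value for ageing. None was called higher by edgeR, beside 0.991% of all genes called. Gpr34, a lysophosphatidylserine receptor that was also among the markers used to name the class, was called lower with age. It ranged from 557 to 1056 CPM in young and from 299.9 to 573 in old mice (ageing -1.02 ± 0.23, edgeR adjusted p = 0.0183; all old -0.80 ± 0.18, adjusted p = 0.0213). The homeostatic list had a median log2 difference of -0.13 for ageing, beside 0.02 over all genes tested. The ageing calls of Ank and Gpr34 were lost with median UMIs per nucleus as a covariate (adjusted p = 0.217 and 0.623) and after thinning (0.121 and 0.138), while Cadm1 was called under every alternative run. Thinning left out shallower nuclei, and young replicate 1 held 20 before it, the minimum for a sum. The thinned fit may therefore also lack that mouse. Without young replicate 3 the ageing p of Ank was 0.0940. The ageing p of Gpr34 was 0.0879 without old ad libitum replicate 2, 0.107 without its replicate 4, 0.114 without young replicate 2 and 0.119 with the trend on gene length removed.

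Within the microglia-like nuclei of old mice, nuclei that held an activation gene had less P2ry12 and Cx3cr1. The 68 nuclei with a UMI of any of the 5 genes and the 1268 without were pooled over the 10 old mice for the CPM values and ratios. The tests went mouse by mouse in the 9 old mice that had both. Long-term replicate 1, with 78 nuclei all without, entered the pooled values only. P2ry12 stood at 583 CPM with and 930 without (ratio 0.627, exact 95% counting interval 0.487 to 0.795) and was lower in 9 of 9 mice (exact sign-flip permutation test, two-sided, p = 0.00391). Several mice had P2ry12 UMIs at or under the limit of 3 in their nuclei with an activation gene. Old ad libitum replicate 1 had 3, acute replicate 1 had 2, and long-term replicates 2, 3 and 4 had 2, 2 and 1. The test counts each of them as a whole mouse. Cx3cr1 stood at 583 with and 922 without (0.632, 0.491 to 0.801), lower in 8 of 9 mice (exact sign-flip permutation p = 0.0117). Tmem119 did not pass (57.5 with, from 7 UMIs, and 125 without, exact sign-flip permutation p = 0.164). The share of all genes that pass the same test is not given here, so a shift of many genes cannot be told apart. In the 15 nuclei with at least 2 activation genes, P2ry12 stood at 474 (exact 95% interval 265 to 781), Cx3cr1 at 379 (196 to 662) and Tmem119 at 0 UMIs, with an upper limit of 116 that lies close to the 125 in nuclei without.

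Of the genes called with age from the lists, Ank and Cadm1 differed in the same nuclei and Gpr34 did not pass. Ank stood at 911 CPM in nuclei with and 145 in nuclei without an activation gene, higher in 8 of 9 mice (exact sign-flip permutation p = 0.00781). Cadm1 stood at 2964 against 1009, higher in 9 of 9 mice (exact sign-flip permutation p = 0.00391). Gpr34 stood at 353 against 443, lower in 7 of 9 mice (exact sign-flip permutation p = 0.0742). The 6 p-values are not adjusted, and here too the share of all genes that pass is not given. Leaving out nuclei defined by Lpl alone gave 53 nuclei with ratios of 0.668 for P2ry12, 0.617 for Cx3cr1, 6.36 for Ank and 2.82 for Cadm1. P2ry12 was then lower in 8 of 9 mice and Cx3cr1 in 9 of 9. In the 29 nuclei with Itgax, Spp1 or Cst7, the ratio was 0.662 for P2ry12, lower in 6 of 8 mice. For Cx3cr1 it was 0.667, lower in 7 of 8.

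The nuclei with an activation gene were deeper (median 1751.5 against 1426.5 UMIs), and the part of depth was not tested. Summed markers of other classes were lower in them for granule neurons (1429 against 1767 CPM), CA1 neurons (255 against 560), astrocytes (1667 against 3499) and macrophages (98.5 against 214), and near equal for oligodendrocytes (345 against 342). The monocyte or neutrophil list (32.8 against 13.8) and the T or NK cell list (8.21 against 3.17) were higher by value, each from 1 gene. Microglial markers summed to 10977 against 12774. The oligodendrocyte precursor list summed to 723 against 145, most of it from Xylt1, a xylosyltransferase, at 616 against 42.8 (75 UMIs with). Of its 8 genes, 3 were higher by value, the others being Cspg4 and Vcan from 3 and 2 UMIs, and 5 were lower by value, with Pdgfra and C1ql1 at 0. The endothelial list summed to 279 against 55.5, and Flt1, a VEGF receptor, was its only gene higher by value (263 against 15.9, 32 UMIs with). Pecam1 stood at 16.4 against 24.3, and the other 8 genes, Cldn5 among them, were at 0 with an activation gene. The part of these genes in the result was not tested.

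**Figure D4:**
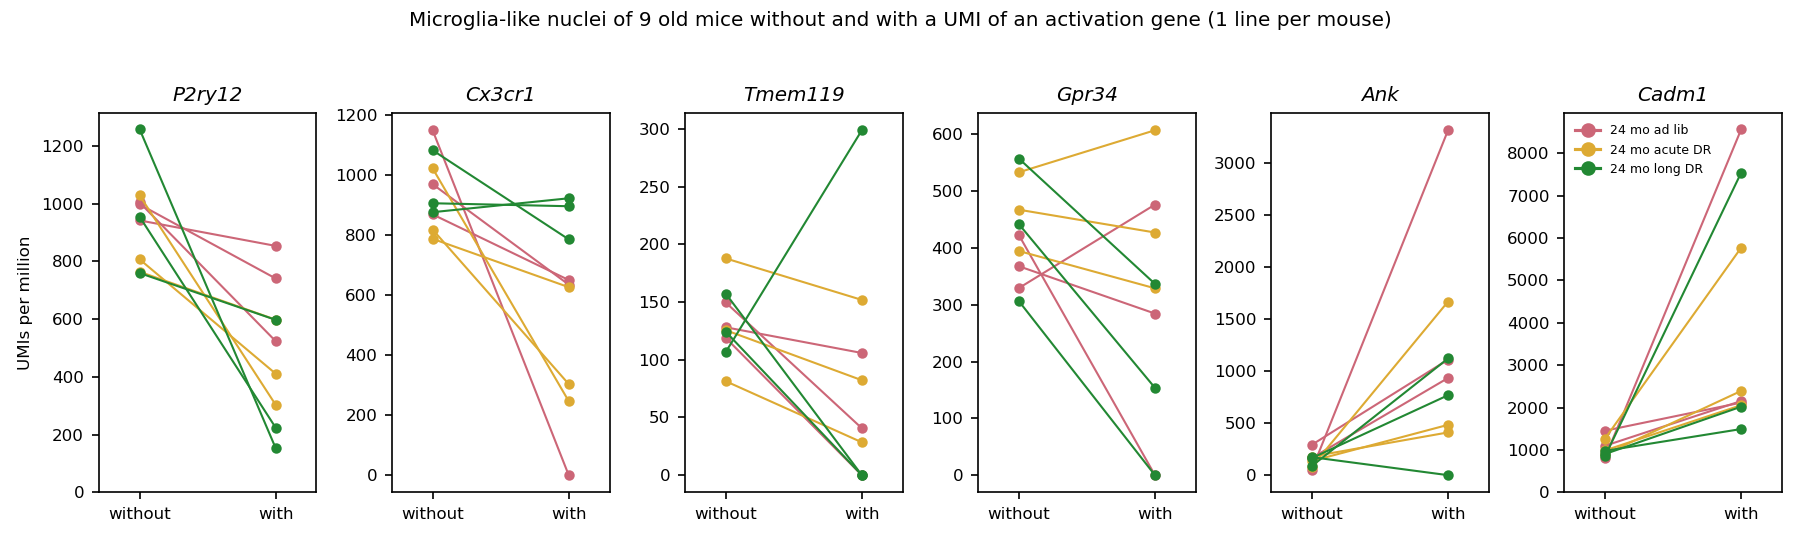
CPM in microglia-like nuclei without and with an activation gene in each of the 9 old mice that had both, 1 line per mouse. P2ry12 is lower with an activation gene in 9 of 9 mice and Cx3cr1 in 8 of 9, while Ank is higher in 8 of 9 and Cadm1 in 9 of 9.

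Macrophage-like nuclei carried Axl, P2ry12 and Cx3cr1 and had few or no UMIs of the other activation genes. Axl gave 20 UMIs (56.7 CPM), found in 13.6% of the 140 nuclei at a median of 1592.5 UMIs, and Itgax, Spp1 and Cst7 gave 0 UMIs, with an exact 95% upper limit of 10.5 CPM. Lpl and Tmem119 gave 2 UMIs each. Axl UMIs numbered 0, 1 and 0 in young, 3, 0 and 2 in old ad libitum, 0, 2 and 3 in acute and 1, 1, 5 and 2 in long-term mice. The pooled ratio of all old to young was 3.25 with an exact 95% counting interval of 0.517 to 135, so a difference was not detectable at this depth. Only 2 libraries held 20 macrophage-like nuclei, and no test between groups was made in this class.

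Outside the microglia-like class, Axl could be tested in 3 classes and Lpl in 5, and edgeR called neither in any contrast. Axl in astrocyte-like nuclei, which held most of its UMIs, stood at 32.6 to 43.5 CPM in young, 28.1 to 41.8 in old ad libitum, 36.0 to 46.3 in acute and 41.1 to 50.1 in long-term mice. The ageing difference there was 0.03 ± 0.21 on the log2 scale (edgeR adjusted p = 0.988), beside 0.436% of genes called in that class. Long-term against old ad libitum gave 0.21 ± 0.19 (adjusted p = 1.00 by edgeR), beside 0% of genes called. Lpl in CA1-like nuclei stood at 39.9, 34.5 and 19.7 in young mice and at 9.67 to 22.4 in the 10 old mice, with 3 old mice above the lowest young mouse. All old against young gave -0.88 ± 0.20 on the log2 scale (edgeR adjusted p = 0.0695, not called, beside 0% of genes called in that class), while DESeq2 called it (adjusted p = 0.00900), as did edgeR with a replicate block (0.0437), with the term for libraries numbered 1 (0.0247) and without young replicate 3 (0.0377). The shares of genes that these other runs called in the class are not given here.

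The homeostatic genes P2ry12 and Cx3cr1 had a lower value with age in the sums of each of the 8 other classes in which they could be tested, and 1 of these 16 differences was called by edgeR. Over the other 10 classes fitted, edgeR called between 0 and 7.69% of all genes for ageing (0.00984% in subicular or cortical, 0.0899% in inhibitory, 2.27% in oligodendrocyte precursor and 2.78% in granule-like nuclei) and between 0 and 13.7% for all old against young (0.109% in CA3, 0.246% in subicular or cortical, 3.14% in astrocyte, 4.31% in inhibitory, 6.05% in oligodendrocyte precursor and 13.7% in granule-like nuclei). For restriction the called shares ran from 0 to 1.85% (acute: 0.0523% in astrocyte, 0.119% in precursor and 1.85% in oligodendrocyte-like nuclei), from 0 to 0.326% (long-term) and from 0 to 0.106% (long-term against acute, with 0.0108% in precursor-like nuclei). The median log2 ageing difference over 8 classes was -1.60 for P2ry12 (0 of 8 called by edgeR, 3 with a replicate block, in granule, inhibitory and subicular or cortical nuclei, at adjusted p = 0.0307, 0.0449 and 0.0310, and 2 with DESeq2, in CA1 and granule-like nuclei, at 0.0222 and 0.0290) and -1.21 for Cx3cr1 (1 of 8 called). The shares of genes called per class with the replicate block and with DESeq2 are not given here. Against old ad libitum mice, P2ry12 was higher by value in 8 of 8 classes under acute restriction (median 0.82) and under long-term restriction (median 0.53), with 0 called by edgeR and 0 at an unadjusted p below 0.05. The 8 classes come from the same mice, so they are not 8 independent observations, for ageing or restriction. In granule-like and CA1-like nuclei P2ry12 was highest in young replicate 2 (177 and 115 CPM) and lowest in old ad libitum replicate 1 (17.7 and 11.2). The ageing call was Cx3cr1 in oligodendrocyte-like nuclei (-1.66 ± 0.42, edgeR adjusted p = 0.0157), beside 7.69% of genes called there. All old against young gave -1.23 ± 0.34 (adjusted p = 0.0255 by edgeR), beside 8.52%. Cx3cr1 stood at 0, 46.3 and 22.1 CPM in young oligodendrocyte-like nuclei, from 47, 734 and 624 nuclei, and at 7.52 to 24.3 in old mice. Only young replicate 2 lay above all old mice. The ageing call was lost without young replicate 2 (adjusted p = 0.448), without old ad libitum replicate 2 (0.136), with DESeq2 (0.0766) and with median UMIs per nucleus as a covariate (0.885).

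In granule-like neurons P2ry12 stood at 32.8, 177 and 80.7 CPM in young and at 17.7 to 66.3 in old mice, and Cx3cr1 at 6.83, 37.9 and 16.9 in young and at 3.40 to 16.3 in old mice. Young replicate 2 was the highest mouse for both, and young replicate 1 lay within the range of the old mice. Csf1r stood at 0.195 to 0.721 over the 13 mice. Tmem119 stood at 0 to 0.303. The ratio of P2ry12 to Cx3cr1 was 4.19 in granule-like and 0.972 in microglia-like nuclei. P2ry12 (chromosome 3, 59216272 to 59262871 in GRCm38, minus strand) lies inside Med12l, a Mediator kinase module gene on the opposite strand. Med12l stood at 389 in granule-like and 443 in microglia-like nuclei. Whether counting used strand is not given in the sources used here, so they do not say whether reads of these genes were told apart. Over the 13 mice Med12l in granule-like nuclei ranged from 334 to 456 and P2ry12 from 17.7 to 177. Med12l stood at its lowest value in young replicate 2, where P2ry12 was highest, and at 405 in old ad libitum replicate 1, where P2ry12 was lowest. Cx3cr1 spans 168 kb in the annotation (chromosome 9, 119901616 to 120069879, minus strand) and overlaps 9 other genes, among them Xirp1 and Csrnp1.

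Without the 4 libraries numbered 1, which include the young mouse within the old range, edgeR called members over the 11 classes 10 times for ageing and 12 times for all old against young, of 27 tests each, where the full set of libraries gave 1 and 1. Over all genes in those classes the share called rose as well, from 1.54 to 6.56% for ageing and from 4.51 to 8.87% for all old. With a replicate block it called 4 and 7 members, and 5.17 and 10.97% of all gene tests. With median UMIs per nucleus as a covariate it called 0 and 0 members, and 0.0474 and 0.214% of all gene tests. Median UMIs per retained nucleus in the young libraries were 6948.5, 3688 and 5286, against 5192 to 11195 in old libraries.

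**Figure D5:**
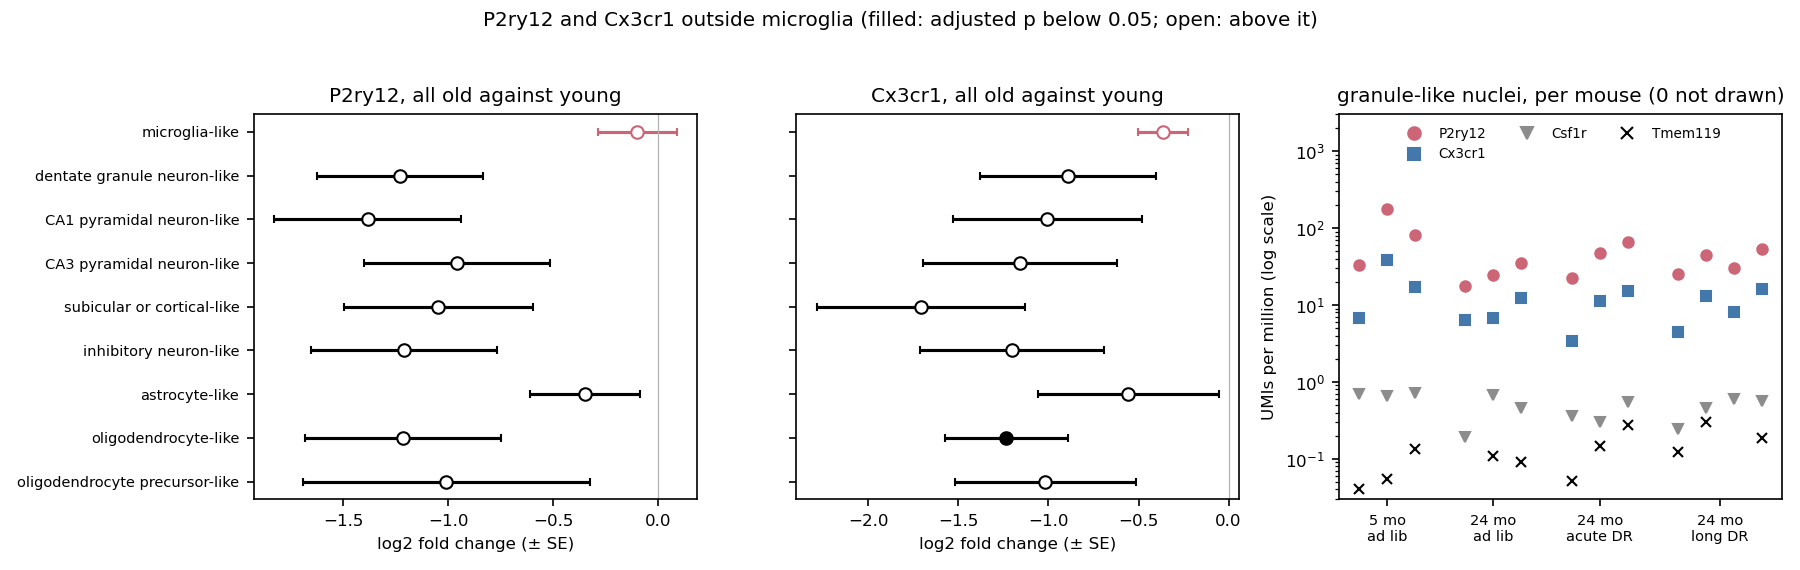
Left and middle, log2 difference of all old against young mice with SE for P2ry12 and Cx3cr1 in each class tested, filled where edgeR's adjusted p was below 0.05. Right, CPM of 4 microglial genes in the granule-like nuclei of each mouse on a log axis, where young replicate 2 is highest for P2ry12 (177) and Cx3cr1 (37.9) while Csf1r stays between 0.195 and 0.721.

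The genes whose levels over the 15 classes were most like each member were ranked by Pearson's r of log2(CPM + 1), over 20939 genes with at least 50 UMIs, as a description. Cx3cr1 was most like Csf3r (0.985), Gm46224 (0.976) and Trem2 (0.976), and Tmem119 most like Gm43464 (0.938), Upk1b (0.934) and Tmem173 (0.927). P2ry12 was most like Eef2k (0.960), Hpgds (0.940) and Sirpa (0.912). Among the activation genes, Itgax was most like St14 (0.996), Gm48614 (0.995) and Unc5cl (0.984), and Cst7 most like D930028M14Rik (0.989), Gm50260 (0.985) and Gm45096 (0.983). Spp1 was most like Pear1 (0.971), Anpep (0.962) and Tmem45a (0.956), Axl most like Zfp217 (0.916), Mdfic (0.914) and Zfp36l1 (0.909), and Lpl most like Alg2 (0.856), Erlin1 (0.853) and Hpn (0.845). The classes come from the same libraries and differ in depth, and Itgax and Cst7 rest on 65 and 115 UMIs.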

How the data were processed

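Nuclear RNA was counted in 13 libraries. The deposited matrices hold raw UMI counts per gene and barcode, made by the authors with Cell Ranger 4.0.0 and mm10, per the submitters' processing notes. The use of introns and strand is not given in the sources used here. A nucleus was kept when it had 500 or more genes and no more than 5% mitochondrial counts, doublets were removed with Scrublet scores, and clusters were found with scanpy 1.11.5 (Python 3.11.15) without the members and named from marker lists. The cluster-naming rule was set after the data were seen. Counts were summed per mouse and class (at least 20 nuclei) and tested with edgeR 4.0.16 (R 4.3.3; quasi-likelihood test, TMM, Benjamini-Hochberg over all genes of a class, threshold 0.05), with all 4 groups in 1 fit.

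Alternatives were DESeq2 1.42.0, its size factors, no filter on low counts, a replicate block, a term for libraries numbered 1, depth as a covariate, doublets retained, other nucleus filters, thinning to 1000 UMIs, removal of a gene length trend and leaving out each library. On simulated data (3821 genes), edgeR recovered 36.7% of ageing changes of size 1 (log2) and 95.9% of size 2, with 4 false calls. For all old against young it recovered 59.5% and 100%. The simulation used 1 dispersion for all genes, and the shares count only changed genes that were fitted. Only genes that passed the filter on low counts were changed, so the shares do not cover the activation genes. Named genes were all members, up to 4 called genes per contrast from a disease-associated (30 genes) and a homeostatic list (21 genes), and the 3 most similar genes per member. Apoe, Trem2, Tyrobp and Ctsb were named after their values were seen. The members and lists were chosen with earlier results of these data known. Intervals and the limit of 3 UMIs cover counting error only. Values of 1 marker gene are not reported here.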

Additional observations from a re-analysis of the deposited data

Results flagged for a closer look

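In the long-term restriction group, 3 values came from 1 mouse of 4 while the other 3 mice were at 0, and each rested on 1 UMI. These were Tmem119 in macrophage-like sums (19.8 CPM), Cst7 in microglia-like sums (3.44) and Spp1 in microglia-like sums (7.15). A group with 1 UMI in all always sets 1 mouse apart, as in these 3. The threshold, Dixon's critical value at 95%, is built so that chance sets 1 mouse apart in about 1 in 20 groups of normally distributed values, a rate that was not measured here.

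Itgax was found in nuclei that no comparison used, the sub-clusters that mixed microglial with other markers. In acute restriction mice it stood at 8.24 CPM there, from 5 UMIs in at most 2 of 80 nuclei, by value above the limit of 3 UMIs in young mice (7.97), which had 1 UMI (2.66). The exact 95% counting intervals (2.68 to 19.2 and 0.0673 to 14.8) overlapped.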

How the results depend on the processing

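Order of values below: ageing, all old against young, long-term and acute restriction. The count of genes called in microglia-like sums by edgeR was 39, 36, 2 and 1. It was 112, 107, 4 and 2 with no filter on low counts, 2, 1, 0 and 0 with depth as a covariate and 24, 8, 1 and 0 after thinning. The thinned fit may also lack young replicate 1, which held 20 nuclei before thinning, the minimum for a sum. Without the libraries numbered 1 (chosen after seeing the data) the count was 88, 65, 0 and 2. With the term for libraries numbered 1 it was 82, 63 and 5 for the first 3 contrasts, with DESeq2 22 for all old and 0 for long-term, and with the length trend removed 1 for long-term. Leaving out 1 library gave 5 to 69 for ageing (5 when young replicate 3 was dropped, 10 for old ad libitum replicate 4 and 69 for acute replicate 1), 5 to 48 for all old (5 and 8 without young replicates 3 and 2, 21 without acute replicate 2), 0 to 6 for long-term (0 without old ad libitum replicate 1 or 4 or long-term replicate 2, 1 when old ad libitum replicate 2 was dropped, 4 and 6 for long-term replicates 3 and 4) and 0 to 2 for acute restriction (0 on dropping acute replicate 1 or 3 or old ad libitum replicate 2 or 4, and 2 on dropping long-term replicate 1).

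The labels do not say what a shared number stands for, and 8 of 16 same-number pairs correlated over 0.1 in microglia-like sums (median 0.0918, against -0.0347 over 47 other pairs). All 6 pairs of libraries numbered 1 did (0.12 to 0.183), and these 4 libraries hold 47 to 183 oligodendrocyte-like nuclei, against 624 to 1651 in the other 9. With the replicate block the gene count was 67, 69 and 0 for ageing, all old and acute, and members over all classes were called 4 and 7 times. The main count of member calls was 1 and 1. It was 2 and 3 with DESeq2, 2 and 2 with no filter or with doublets retained, 6 and 9 with the term for libraries numbered 1, 0 and 0 with depth as a covariate, 10 and 12 without those libraries and 0 for all old with at least 1000 genes. Leaving out 1 library gave 0 to 4 and 0 to 8 (0 without young or old ad libitum replicate 2, 4 and 8 without young replicate 1, 0 for all old without acute replicate 2). The share of all gene tests called is given above for the main fit, the replicate block, the covariate and the runs without libraries numbered 1. It is not given for the other runs, whose counts are not read as results about the members.

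Signs turned for members that were not called. On the log2 scale P2ry12 gave 0.0681, 0.144 and 0.181 for ageing (covariate, thinned, without libraries numbered 1), 0.00562, 0.15 and 0.0913 for all old (no filter, thinned, without those libraries), and -0.23 to 0.18 and -0.26 to 0.16 when 1 library was left out. The thinned fits may also lack young replicate 1, which held 20 nuclei before thinning, the minimum for a sum. Tmem119 gave 0.0475 for ageing with the length trend removed and 0.0463 without libraries numbered 1. For long-term restriction Tmem119 gave 0.00780 with DESeq2, 0.0209 with no filter, 0.0502 with the replicate block, 0.0307 with the covariate and 0.114 thinned, and -0.0767 to 0.111 with 1 library left out. Cx3cr1 there gave 0.0428 with no filter, 0.0163 with the block, 0.00462 with the term for libraries numbered 1, 0.123 with the covariate, 0.14 thinned, 0.0177 with the length trend removed and 0.129 without those libraries, and -0.0915 to 0.0887 with 1 library left out. For acute restriction Cx3cr1 gave 0.0577 with the covariate. With 1 library left out Tmem119 gave -0.399 to 0.186 for acute restriction and -0.198 to 0.393 for long-term against acute.

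In CPM, long-term minus acute gave -1.01 for Lpl after thinning and, without libraries numbered 1, 1.19 for Itgax and 0.662 for Spp1. With 1 library left out it gave -5.15 to 18.7 for Lpl and -7.09 to 0.0667 for Spp1, and long-term minus old ad libitum gave -4.33 to 14.7 for Itgax. Fits with 1000 or more genes per nucleus could not be made in microglia-like sums. The cause of these changes was not tested.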
